A study of Mus musculus with 3 samples.

Results

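The homeobox genes outside the Hox clusters that pattern organs and body regions were examined in fetal mouse male gonads with and without Nanos2. Members were the genes whose array annotation carries a symbol of the Lhx, Isl, Nkx, Msx, Barx, Dlx, Emx, Otx, Pitx, Alx, Irx, Gbx or Cdx series or of the sine oculis series, to which Six2 belongs. Lhx8 and antisense transcripts were left out by the rule, and 57 genes measured by 78 probes remained, of 19532 genes on the array. The rule reads symbols alone, with no level filter. The families were nevertheless selected on the deposited ratios of the same 3 columns in an earlier look at these data, so every count below is a description and supports nothing beyond it.

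RNA came from male gonads of mouse embryos at E14.5, a stage named in days of embryonic development, and was measured on 1-colour Agilent arrays. The groups were gonads null for Nanos2 and heterozygous for Stra8 (Nanos2-/- Stra8+/-), gonads labelled null for both genes (Nanos2-/- Stra8-/-), and gonads heterozygous for both (Nanos2+/- Stra8+/-), which served as the control, so no group was wild type. NANOS2 is an RNA-binding protein of fetal male germ cells, and STRA8 is a factor needed for entry into meiosis. Each group had 1 column of deposited values, whose title names replicates 1 and 2. No replicate spread, test or error could therefore be had for any difference, and precision is limited by the few arrays. Changes in how many cells of a type were present and changes in RNA per cell cannot be told apart in such bulk tissue.

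Homeodomain proteins bind DNA through a conserved fold of helices and set the identity of cells along the body axis and in single organs. Most of the members are best known from the nervous system, the head, the heart, the gut or the limbs. A few act in the urogenital tract of the mouse. Emx2 and Lhx9 are needed to form the gonad, Six4 acts in gonadal precursor cells, and Lhx1 is needed for the ducts and tubules of the mesonephros and kidney. Irx3 and Irx5 act in pre-granulosa cells of the fetal ovary, Msx1 and Msx2 in its germ cells as they enter meiosis, and Otx2 restrains entry into the germline in the early embryo.

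The authors deposited linear ratios, mostly near 1 and apparently divided per probe, so a value can be set against another column of the same probe but not against another probe. Differences are given as log2 differences between columns, averaged over the probes of a gene, and a gene was counted from 2-fold, a log2 difference of 1. A separate class of 7599 of 41267 entries lay below 0.7 in all 3 columns and held the negative control spot, at 0.354 in Nanos2-/- Stra8+/- gonads, 0.454 in gonads labelled Nanos2-/- Stra8-/- and 0.352 in control gonads. Whether a low value lay above background is not known, so a fold against it is uncertain and may be too small or too large. In the control column Otx2 (0.200), Nkx1-1 (0.165), Nkx2-1 (0.349) and Nkx2-2 (0.304) lay under the negative control spot. So did a probe each of Nkx2-4 (0.253) and Msx1 (0.323), while Gbx2 (0.432) and Lhx1 (0.576 and 0.483) lay above it. As probes cannot be set against each other, what this means for their folds is not known. Of the member probes 12 of 78 (15.4%) belonged to this class, against 13.9% of all named probes. All probes of 6 members lay there, namely Cdx2, Cdx4, Dlx6, Nkx2-9, Nkx3-2 and Six6, and 46 members had no probe there.

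Nanos2, checked first, had a ratio of 0.364 in Nanos2-/- Stra8+/- gonads and 0.397 in gonads labelled Nanos2-/- Stra8-/-, against 87.2 in control gonads, in the direction its labels call for. Stra8 stood at 1.13 and 1.34 in both Nanos2-null groups, against 0.108 in control gonads, so the Stra8 label has no check in these values, because the place of its probe relative to the deleted part could not be told from the sources. Marker lists of 11 cell types had 71 measured genes, and 0 of them had all their probes in the low class. Sertoli cell markers summed to 8.93 and 9.54 in the Nanos2-null groups, Nanos2-/- Stra8+/- first, and 8.80 in control gonads over 9 genes. Fetal germ cell markers summed to 9.01 and 9.55 in the Nanos2-null groups, in the same order, and 9.29 in control gonads over 9 genes. Single germ cell markers went both ways under these close sums. With Nanos2 loss 5 of the 9 had a positive log2 difference, up to 0.82 for Nanos3 and 0.62 for Dazl. The lowest were Dnd1 at -0.89, Tdrd1 at -0.75 and Mael at -0.63.

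**Figure D1:**
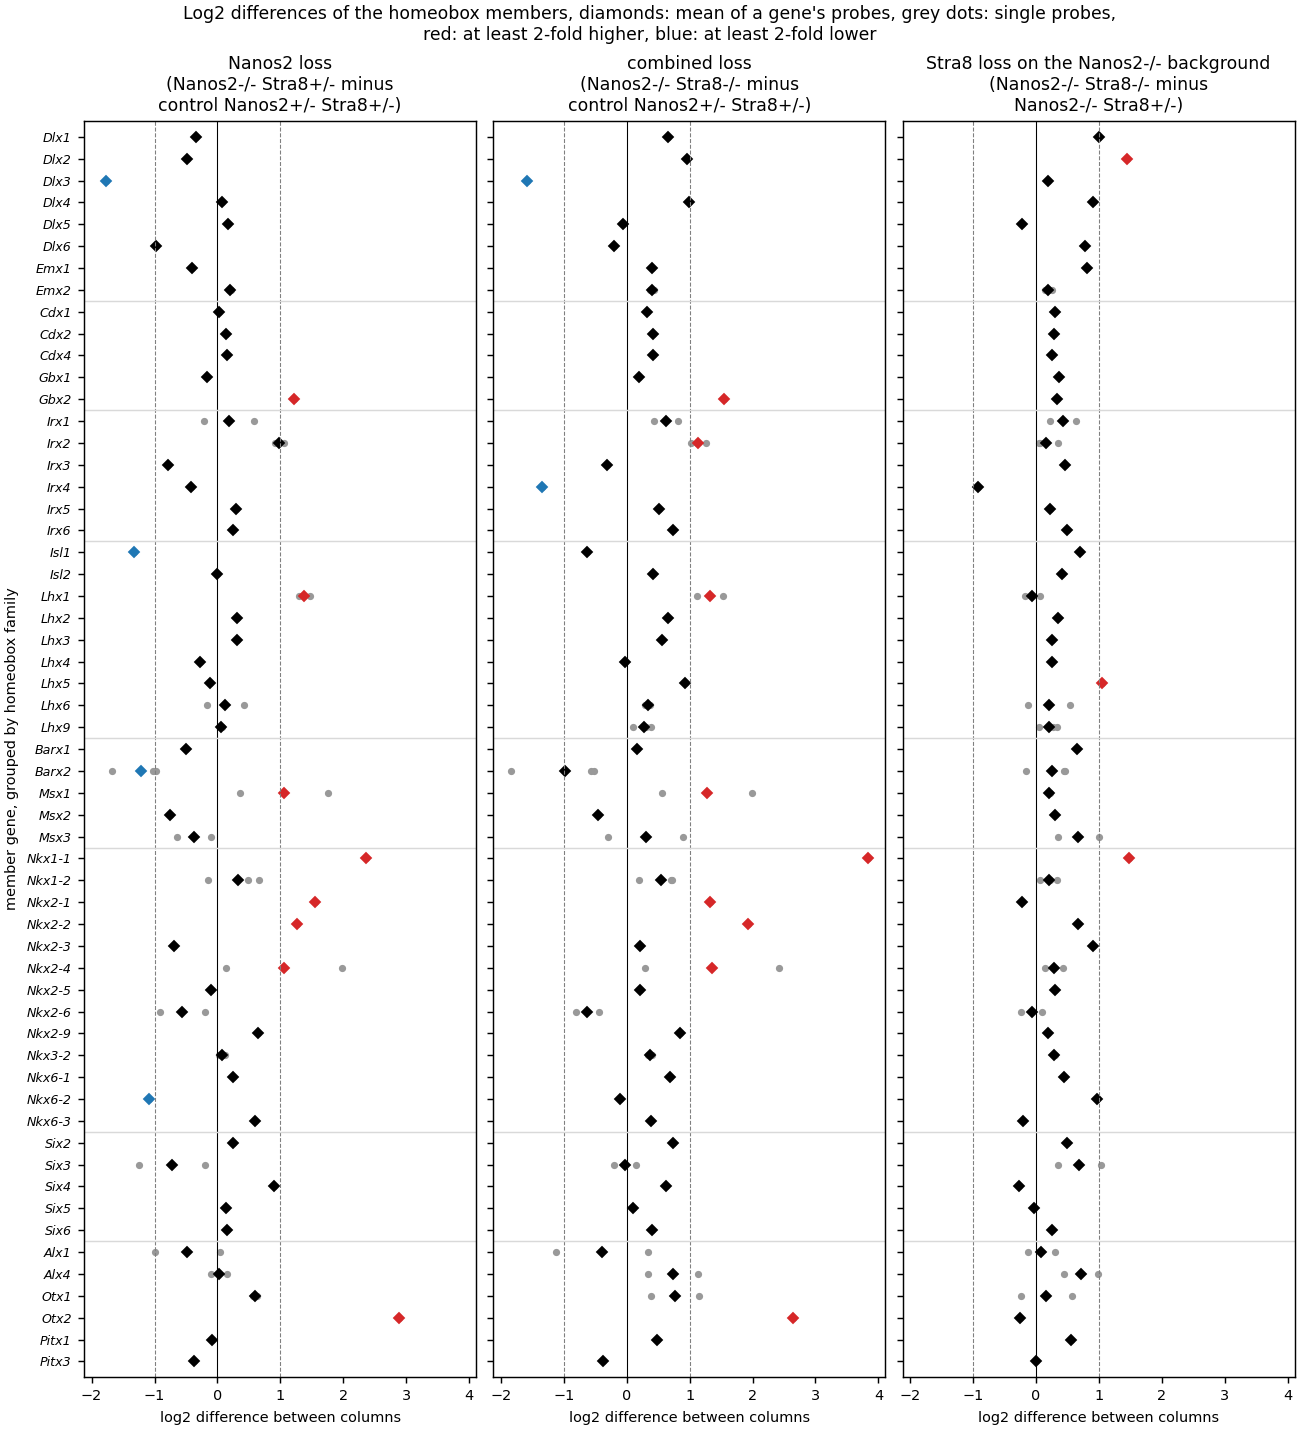
Log2 differences of the 57 members in the 3 comparisons, with genes down the page by homeobox family and the log2 difference between 2 columns across it. Diamonds are means over a gene's probes and grey dots are single probes, with dashed lines at 2-fold. Otx2 and Nkx1-1 lie farthest to the right with Nanos2 loss, and Dlx3 lies farthest to the left.

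With Nanos2 loss, set as Nanos2-/- Stra8+/- gonads over control gonads, members spread more widely than genes in general, in both directions. At least 2-fold higher were 8 of 57 members (14.0%), against 2.35% of all genes. These were Otx2, Nkx1-1, Nkx2-1, Lhx1, Nkx2-2, Gbx2, Nkx2-4 and Msx1. At least 2-fold lower were 4 members (7.02%), against 3.12% of all genes, namely Dlx3, Isl1, Barx2 and Nkx6-2. The median over the members was 0.08, against 0.04 over all genes, and the interquartile range of the members ran from -0.41 to 0.31, against -0.12 to 0.17 for all genes.

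In combined loss, which sets gonads labelled Nanos2-/- Stra8-/- against the same control, 9 members (15.8%) were at least 2-fold higher, against 4.24% of all genes, and 2 (3.51%) were at least 2-fold lower, against 2.81%. The higher members were Nkx1-1, Otx2, Nkx2-2, Gbx2, Nkx2-4, Nkx2-1, Lhx1, Msx1 and Irx2, and the lower ones were Dlx3 and Irx4. The member median was 0.41, against 0.18 over all genes. Genes with all their probes in the low class had a median of 0.38 in this comparison and other genes 0.14. The member median lay near that of the low class, and the 46 members with no probe there had a median of 0.45. Some of those, such as Otx2 and Nkx1-1, still had control ratios under the negative control spot. The part of low values in the member median was not tested. Both comparisons share control gonads, so a low or high control value enters each of them.

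A setting that raises low values was also run. It removes by construction differences whose lower side is under the column median, so its counts were largely fixed in advance. With every value under its column median raised to that median, 0 members were higher and 0 lower with Nanos2 loss, against 0.113% and 1.38% of all genes under that setting. In combined loss 1 was higher, Nkx1-1, and 0 lower, against 0.410% and 1.31%. At a smaller size of 1.5-fold, 13 members were higher and 9 lower with Nanos2 loss, against 5.78% and 6.83% of all genes. At that size 22 were higher and 5 lower in combined loss, against 12.4% and 6.28%, and 15 higher and 1 lower for Stra8 loss on the Nanos2-/- background, against 6.8% and 2.9%.

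Number of probes bears on these counts. A single probe measured 40 of the 57 members, against 56.4% of all genes. Among single-probe members 5 (12.5%) were higher and 3 (7.5%) lower with Nanos2 loss, against 3.47% and 4.47% of all single-probe genes. In combined loss 5 were higher and 2 lower among them, against 6.12% and 3.98%. Of the 17 members with 2 or more probes, Lhx1 alone was at least 2-fold higher by each probe with Nanos2 loss, where 0.294% of such genes were, and none was lower by each probe, where 0.564% were. In combined loss Lhx1 and Irx2 were higher by each probe, where 0.54% of such genes were, and again none was lower, where 0.529% were. The probes of a member had a median range of 0.59 with Nanos2 loss and 0.41 in combined loss.

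**Figure D2:**
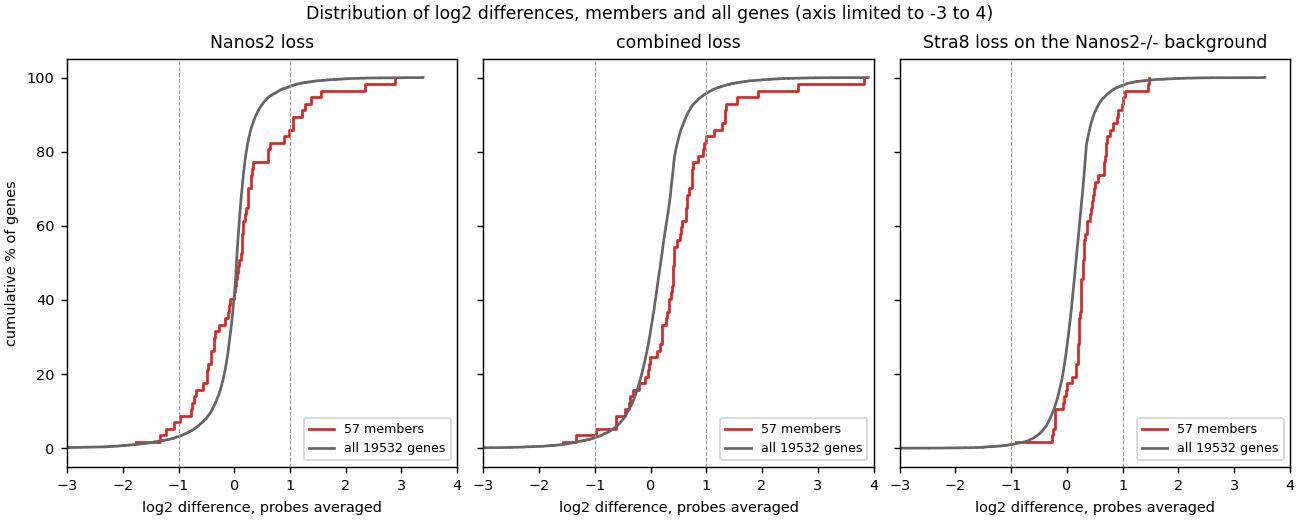
Cumulative percentage of genes by log2 difference, for the 57 members and all 19532 genes in each comparison, with dashed lines at 2-fold. The member curve is shallower than that of all genes with Nanos2 loss, with 14.0% of members past the right line and 7.02% past the left.

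The member with the greatest difference upon Nanos2 loss was Otx2, a head and forebrain factor. Its single probe had a ratio of 1.48 in Nanos2-/- Stra8+/- gonads and 1.25 in gonads labelled Nanos2-/- Stra8-/-, against 0.200 in control gonads. Both Nanos2-null groups were thus above the control, by 7.42-fold and 6.26-fold. Its relative Otx1, also a forebrain gene, stayed under 2-fold by the mean of its 2 probes, at 0.817 and 0.916 in the Nanos2-null groups in the same order, against 0.539 in control gonads. The log2 differences of the Otx1 probes were 0.57 and 0.63 with Nanos2 loss, but 1.15 and 0.38 in combined loss.

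The remaining paired-type members showed smaller differences. Pitx1, which specifies the hindlimb, had log2 differences of -0.08 with Nanos2 loss and 0.48 in combined loss. Pitx3, a gene of the lens and of dopaminergic neurons, had -0.37 in each of these comparisons. Both stayed within 2-fold. The probes of the craniofacial genes Alx1 and Alx4 disagreed. For Alx1 a probe of the low class had a log2 difference of 0.04 with Nanos2 loss and the other had -1.0, and for Alx4 the probes had 1.13 and 0.35 in combined loss.

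Among 9 LIM homeodomain genes, Lhx1 alone was at least 2-fold higher with Nanos2 loss (11.1%, against 2.35% of all genes). Its first probe had ratios of 1.41 in Nanos2-/- Stra8+/- gonads and 1.25 in gonads labelled Nanos2-/- Stra8-/-, against 0.576 in control gonads. The second had 1.34 and 1.40 in the Nanos2-null groups, in the same order, against 0.483 in control gonads. Both probes placed the Nanos2-null groups above the control, with a mean of 2.61-fold for Nanos2 loss and 2.51-fold for combined loss. Markers of the mesonephros, the embryonic kidney beside the gonad, where Lhx1 acts, were also higher as a sum over 7 genes, at 8.05 in Nanos2-/- Stra8+/- gonads and 8.61 in gonads labelled Nanos2-/- Stra8-/-, against 5.41 in control gonads. Of these genes 2 of 7 were at least 2-fold higher with Nanos2 loss, Ret and Cdh16, and 2 in combined loss, Ret and Cdh1, where 2.35% and 4.24% of all genes were. The cadherin gene Cdh16 stood at 2.05 in Nanos2-/- Stra8+/- gonads but 0.822 in gonads labelled Nanos2-/- Stra8-/-, against 1.0 in control gonads. The highest difference was that of the GDNF receptor gene Ret, at 1.53 and 2.63 in the Nanos2-null groups against 0.369 in control gonads. Pax2, a defining gene of mesonephric ducts and tubules, stood at 0.976 and 1.13 in the Nanos2-null groups against 0.916 in control gonads, and Pax8, another, at 0.509 and 0.551 against 0.702. The part of mesonephric tissue in the Lhx1 difference was not tested.

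With Nanos2 loss, other LIM homeodomain genes differed little or downward. Lhx9, needed for gonad formation, had 3 probes that lay between 1.0 and 1.03 in Nanos2-/- Stra8+/- gonads, between 1.07 and 1.26 in gonads labelled Nanos2-/- Stra8-/-, and between 0.956 and 1.0 in control gonads. Its mean log2 difference was 0.05 with Nanos2 loss and 0.27 in combined loss. Lhx2, a gene of the eye and forebrain, stood at 1.0 and 1.28 in the Nanos2-null groups against 0.809 in control gonads. Isl1, a gene of motor neurons, heart progenitors and the genital tubercle, stood at 0.612 in Nanos2-/- Stra8+/- gonads and 1.0 in gonads labelled Nanos2-/- Stra8-/-, against 1.54 in control gonads. It was 2.52-fold lower with Nanos2 loss, while its log2 difference in combined loss was -0.62, so the Nanos2-null groups were unlike. Lhx3, Lhx4, Lhx5, Lhx6 and Isl2 lay between -0.27 and 0.31 on the log2 scale with Nanos2 loss. In combined loss they ran from -0.02 for Lhx4 to 0.93 for Lhx5, with Lhx3 at 0.56.

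Because Otx2, Lhx1 and Irx2 were higher in both Nanos2-null groups and Isl1 was lower, their promoters are shown, from 250 bases before to 50 after the transcription start, 5′ to 3′ on the gene's strand. They are RefSeq sequences of the assembly GRCm38.p6, and capitals mark the homeodomain core motif TAAT or its complement ATTA. Otx2 (chr14:48667595-48667894, minus strand, the first of 4 listed starts) holds 5 such motifs, Lhx1 (chr11:84525485-84525784, minus strand) 1, Irx2 (chr13:72628570-72628869, plus strand) 0 and Isl1 (chr13:116309639-116309938, minus strand) 2.
Otx2: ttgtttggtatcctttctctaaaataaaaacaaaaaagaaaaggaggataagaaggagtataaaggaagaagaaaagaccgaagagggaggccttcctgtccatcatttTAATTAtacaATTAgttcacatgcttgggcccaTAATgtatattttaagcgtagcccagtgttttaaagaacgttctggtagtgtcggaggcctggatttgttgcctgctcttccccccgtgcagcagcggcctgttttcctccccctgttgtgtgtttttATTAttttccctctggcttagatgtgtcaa
Lhx1: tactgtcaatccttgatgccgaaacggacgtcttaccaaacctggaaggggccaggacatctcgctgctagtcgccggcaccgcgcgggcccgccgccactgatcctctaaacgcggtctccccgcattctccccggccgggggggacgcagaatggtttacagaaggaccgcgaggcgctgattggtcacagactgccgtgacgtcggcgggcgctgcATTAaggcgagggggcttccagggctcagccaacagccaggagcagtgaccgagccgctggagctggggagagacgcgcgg
Irx2: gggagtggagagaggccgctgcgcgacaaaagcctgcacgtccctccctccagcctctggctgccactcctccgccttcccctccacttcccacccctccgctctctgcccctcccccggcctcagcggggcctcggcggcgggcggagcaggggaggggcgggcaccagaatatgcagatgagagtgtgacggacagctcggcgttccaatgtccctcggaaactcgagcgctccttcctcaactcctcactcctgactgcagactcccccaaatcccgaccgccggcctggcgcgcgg
Isl1: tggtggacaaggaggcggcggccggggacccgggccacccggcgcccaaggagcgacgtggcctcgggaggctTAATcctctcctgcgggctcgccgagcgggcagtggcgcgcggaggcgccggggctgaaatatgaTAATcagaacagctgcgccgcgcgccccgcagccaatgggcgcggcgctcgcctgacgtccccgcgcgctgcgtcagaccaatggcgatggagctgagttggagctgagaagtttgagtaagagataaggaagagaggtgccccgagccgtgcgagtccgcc
The Otx2 window has 6 CpG dinucleotides and a GC content of 41.7%, where the other 3 have 25 to 37 CpGs and a GC content from 65.7% to 69.0%.

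Promoters were matched for 40 of the 57 members. Taking the first listed start, TAAT on either strand, overlaps counted, occurred in 20 of them (50%), against 50.1% of 15594 promoters of genes on the array and 58.3% of all 27025. The longer motif TAATCC, the form bound by Otx and Pitx proteins, which contains TAAT, was found in the window of 1 member (2.5%), Isl1, against 6.37% for genes on the array. Member promoters held more CpG dinucleotides, with a median of 22 against 15 for genes on the array, and a median GC content of 65.8% against 57.7%. These are features of the letters and say nothing of binding.

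The NK genes held 4 of the 8 members that were higher with Nanos2 loss, out of 13 in the family (30.8%), against 2.35% of all genes. The family also held 1 lower member (7.69%), against 3.12% of all genes. Nkx1-1, whose role is little described, had a single probe at 0.845 in Nanos2-/- Stra8+/- gonads and 2.35 in gonads labelled Nanos2-/- Stra8-/-, against 0.165 in control gonads. It was 5.11-fold higher with Nanos2 loss and 14.2-fold higher in combined loss, and the Nanos2-null groups themselves differed. Nkx2-1, which specifies thyroid, lung and ventral forebrain, had ratios of 1.02 and 0.878 in the Nanos2-null groups, in the same order, against 0.349 in control gonads. Nkx2-2, a gene of the ventral neural tube and pancreatic islets, had 0.731 and 1.16 in the Nanos2-null groups against 0.304 in control gonads. For each of these 3 genes the control was the lowest column, and each rested on 1 probe.

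Nkx2-4, a close relative of Nkx2-1, had 2 probes that disagreed. With Nanos2 loss their log2 differences were 1.98 and 0.14, and in combined loss 2.41 and 0.29. The first probe stood at 1.0 in Nanos2-/- Stra8+/- gonads and 1.35 in gonads labelled Nanos2-/- Stra8-/-, against 0.253 in control gonads, while the second stood at 0.962, 1.07 and 0.872 in that order. The mean of 2.09-fold with Nanos2 loss therefore rests on the first.

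The other NK members went both ways. Nkx6-2, a neural tube gene, was 2.12-fold lower with Nanos2 loss, at 0.524 in Nanos2-/- Stra8+/- gonads against 1.11 in control gonads, but stood at 1.03 in gonads labelled Nanos2-/- Stra8-/-. With a pseudocount of 0.1 its log2 difference with Nanos2 loss was -0.96. Nkx2-6, a gene of the pharynx and heart, had negative log2 differences by both probes, of -0.91 and -0.20 with Nanos2 loss and of -0.81 and -0.44 in combined loss. Its heart relative Nkx2-5 had -0.10 and 0.21, and Nkx2-3, a gene of gut and spleen, had -0.69 and 0.21. Nkx6-1, known from beta cells and motor neurons, had 0.25 and 0.70, and its relative Nkx6-3, a stomach gene, had 0.60 and 0.39. Nkx1-2, a gene of the caudal embryo, had a mean of 0.33 with Nanos2 loss over 3 probes, of which the low-class probe had -0.15. Nkx3-2, a gene of the axial skeleton, lay wholly in the low class by both probes, with a mean log2 difference of 0.07 with Nanos2 loss and 0.37 in combined loss.

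**Figure D3:**
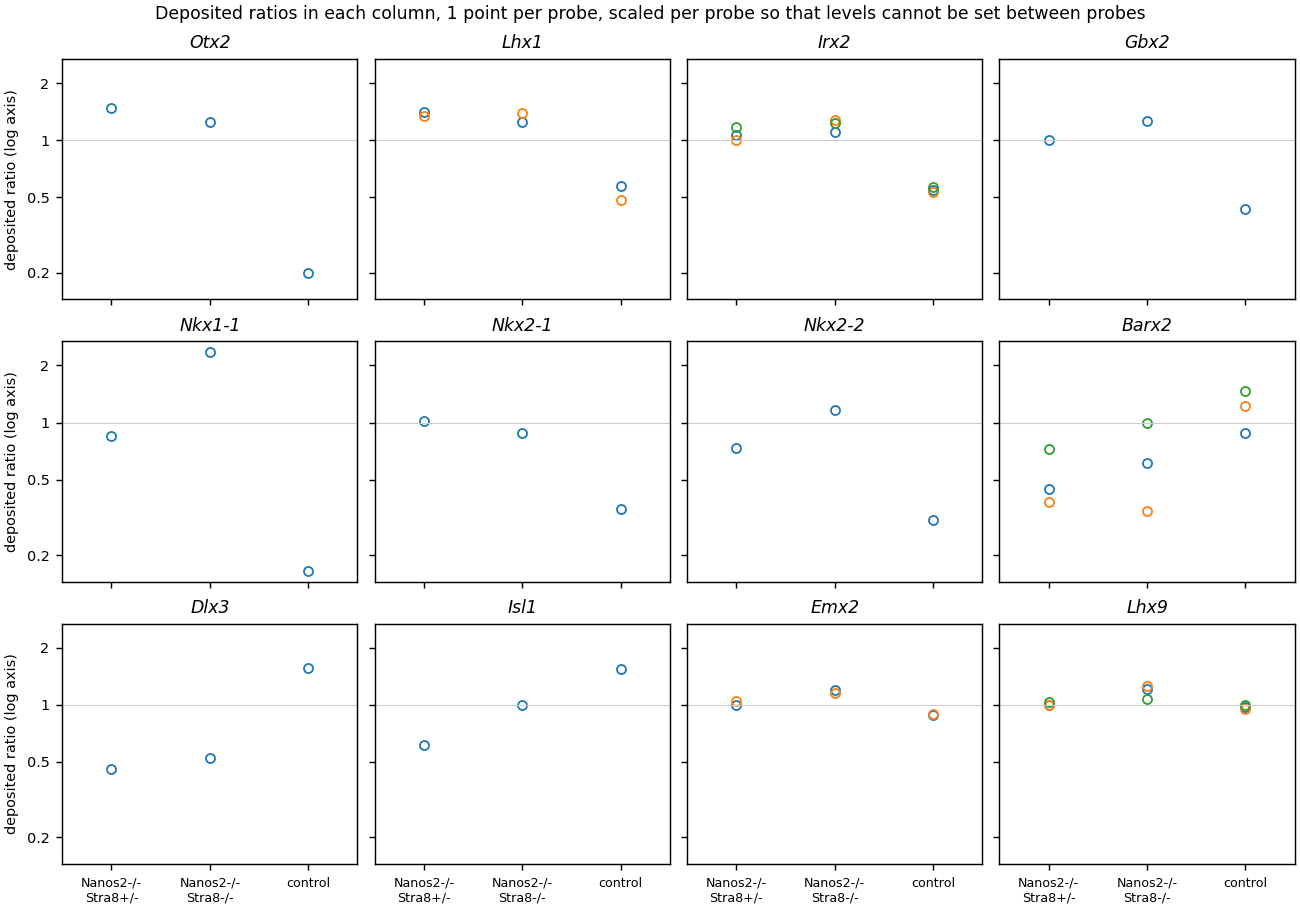
Deposited ratios on a log axis of 12 members in Nanos2-/- Stra8+/- gonads, gonads labelled Nanos2-/- Stra8-/- and control gonads, with 1 point per probe. The control is the lowest column for the 7 genes from Otx2 to Nkx2-2, and the highest for Barx2, Dlx3 and Isl1.

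Msx1, a target of BMP signalling, had 2 probes that differed in size but not in direction. The first stood at 1.09 in Nanos2-/- Stra8+/- gonads and 1.28 in gonads labelled Nanos2-/- Stra8-/-, against 0.323 in control gonads. The second stood at 0.998 and 1.15 in the Nanos2-null groups, in the same order, against 0.780 in control gonads. The control was lowest by both, and the log2 differences with Nanos2 loss were 1.76 and 0.36. Msx2, its partner in the fetal ovary, went the other way, at 0.808 and 1.0 in the Nanos2-null groups against 1.37 in control gonads, which is within 2-fold.

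Barx2, a gene of epithelia and muscle, was lower by all 3 of its probes in both Nanos2-null groups. In Nanos2-/- Stra8+/- gonads the probes stood at 0.447, 0.381 and 0.727, in gonads labelled Nanos2-/- Stra8-/- at 0.612, 0.341 and 0.998, and in control gonads at 0.880, 1.22 and 1.47. For each probe the control was the highest column. Barx2 was 2.33-fold lower with Nanos2 loss, while in combined loss its mean log2 difference of -0.97 stayed just under 2-fold. Barx1, a stomach gene, had a log2 difference of -0.50 with Nanos2 loss and 0.16 in combined loss. The neural gene Msx3 had a probe in the low class, and its mean was -0.37 and 0.30 in the same comparisons.

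Dlx3, a gene of placenta, teeth and hair, was the lowest member in both comparisons. Its single probe stood at 0.459 in Nanos2-/- Stra8+/- gonads and 0.523 in gonads labelled Nanos2-/- Stra8-/-, against 1.56 in control gonads. It was 3.40-fold lower with Nanos2 loss and 2.98-fold lower in combined loss. Dlx4, its neighbour on the chromosome, had log2 differences of 0.08 and 0.99 in these comparisons. Dlx5, which with Dlx6 acts in steroid production of mouse fetal Leydig cells, stood at 1.12 and 0.964 in the Nanos2-null groups against 1.0 in control gonads. Dlx6, whose probe lay in the low class, had a log2 difference of -0.98 with Nanos2 loss and -0.20 in combined loss. Markers of fetal Leydig cells summed to 3.93 and 3.60 in the Nanos2-null groups and 4.12 in control gonads over 4 genes.

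Emx2, needed for the urogenital tract, showed close agreement of its 2 probes. They stood at 1.0 and 1.05 in Nanos2-/- Stra8+/- gonads, at 1.19 and 1.16 in gonads labelled Nanos2-/- Stra8-/-, and at 0.879 and 0.899 in control gonads. Its mean log2 difference was 0.20 with Nanos2 loss and 0.40 in combined loss. The cortical gene Emx1 had -0.41 and 0.41, so its Nanos2-null groups lay on either side of the control.

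Of the Iroquois genes, Irx2, which is known from the heart and the neural tube, had 3 probes that lay close together. They stood at 1.06, 0.999 and 1.18 in Nanos2-/- Stra8+/- gonads, at 1.10, 1.28 and 1.23 in gonads labelled Nanos2-/- Stra8-/-, and at 0.545, 0.532 and 0.569 in control gonads. For each probe the control was the lowest column. The gene was 1.97-fold higher with Nanos2 loss, just under the size counted, and 2.19-fold higher in combined loss, where quantile normalization took its log2 difference to 0.98. Irx1, on the same chromosome stretch, had a mean of 0.19 with Nanos2 loss from probes at 0.58 and, in the low class, -0.21. Irx4, a gene of the heart ventricle and the third of that cluster, stood at 1.0 in Nanos2-/- Stra8+/- gonads and 0.530 in gonads labelled Nanos2-/- Stra8-/-, against 1.34 in control gonads, which made it 2.53-fold lower in combined loss. Irx6, of the other cluster, had log2 differences of 0.25 and 0.74.

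The ovarian Iroquois genes differed in direction. Irx3 stood at 0.451 in Nanos2-/- Stra8+/- gonads and 0.623 in gonads labelled Nanos2-/- Stra8-/-, against 0.773 in control gonads. Irx5 stood at 0.679 and 0.794 in the Nanos2-null groups, in the same order, against 0.554 in control gonads. Neither reached 2-fold, and they lay on opposite sides of the control. Pre-granulosa markers summed to 6.10 and 6.82 in the Nanos2-null groups against 4.76 in control gonads over 6 genes. Of these, 1 was at least 2-fold higher with Nanos2 loss and 2 in combined loss, where 2.35% and 4.24% of all genes were. Gng13 stood at 1.15 and 1.39 against 0.467, and Rspo1 at 0.998 and 1.17 against 0.544. Fst stood at 1.16 and 0.769 against 1.0. Foxl2, a defining factor of that lineage, stood at 0.858 and 1.33 in the Nanos2-null groups against 0.848 in control gonads. Their part in the Irx values was not tested.

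The sine oculis, Gbx and Cdx genes other than Gbx2 stayed within 2-fold in each comparison, though some came near it. Six4 stood at 1.20 in Nanos2-/- Stra8+/- gonads and 0.999 in gonads labelled Nanos2-/- Stra8-/-, against 0.645 in control gonads, a log2 difference of 0.90 with Nanos2 loss. Six3, a forebrain and eye gene, had a mean of -0.72 with Nanos2 loss, with -1.24 from the probe outside the low class and -0.19 from the probe within it. Six2, of nephron progenitors, Six5 and the eye gene Six6 lay between 0.13 and 0.25 with Nanos2 loss. In combined loss these genes ran from 0.11 for Six5 to 0.74 for Six2. Gbx2, which positions the boundary of midbrain and hindbrain, was the exception among Gbx and Cdx genes, at 1.01 and 1.27 in the Nanos2-null groups against 0.432 in control gonads. It was 2.33-fold higher with Nanos2 loss and 2.93-fold higher in combined loss, by 1 probe. Gbx1, a gene of the spinal cord, had log2 differences of -0.17 and 0.20. Cdx1, Cdx2 and Cdx4, which pattern the posterior body and the gut, lay between 0.02 and 0.15 on the log2 scale for Nanos2 loss, and between 0.33 and 0.42 for combined loss.

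For Stra8 loss on the Nanos2-/- background the value of Nanos2-/- Stra8+/- gonads was subtracted from that of gonads labelled Nanos2-/- Stra8-/-, which leaves out the control. Members at least 2-fold higher were 3 of 57 (5.26%), against 2.06% of all genes, and none was 2-fold lower, against 1.01% of all genes. The member median was 0.30, against 0.16 for all genes and 0.31 for genes with all probes in the low class. The 46 members with no probe in that class had a median of 0.31, against 0.14 for all genes with a probe outside it. The spread among members was smaller here than in the other comparisons. Their interquartile range ran from 0.20 to 0.66, against -0.02 to 0.31 for all genes.

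All 3 higher members had 1 probe, where 3.21% of single-probe genes were higher and 1.59% lower. Of the 17 members with 2 or more probes none was higher or lower by each probe, where 0.094% and 0.0352% of such genes were. The higher genes were Nkx1-1 at 2.78-fold, Dlx2 at 2.73-fold and Lhx5 at 2.07-fold, each by a single probe. With a pseudocount of 0.1 the log2 difference of Lhx5 was 0.96, under the size counted. Dlx2, a forebrain interneuron gene, stood at 1.06 in gonads labelled Nanos2-/- Stra8-/- and 0.386 in Nanos2-/- Stra8+/- gonads. Its neighbour Dlx1 stood at 1.40 and 0.703 in that order, a log2 difference of 0.998 that lay just short of the size counted. Lhx5, a forebrain gene, stood at 1.66 and 0.802 in the same order. Nkx6-2, with a log2 difference of 0.98, and Dlx4, with 0.91, came next. The lowest member was Irx4, at -0.92. Otx2, Lhx1 and Nkx2-1, which were higher in both Nanos2-null groups than in the control, had log2 differences of -0.24, -0.06 and -0.22 between those columns.

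Members that lie within 1000000 bases of each other, by a RefSeq gene table used for neighbourhood only, formed 10 groups with 22 genes. Nkx2-2 and Nkx2-4 were both higher, with log2 differences of 1.26 and 1.06 with Nanos2 loss. Nkx2-1 was 1.55 and its neighbour Nkx2-9, in the low class, 0.65. Dlx1 and Dlx2 were -0.35 and -0.49. In other groups neighbours parted, as in Dlx3 and Dlx4 at -1.77 and 0.08, or Irx2 and Irx4 at 0.97 and -0.42.

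Proteins that work with the members were listed as 4 groups. Of 10 LIM domain cofactors and LIM-only genes, 1 was at least 2-fold higher with Nanos2 loss and none lower, against 2.35% and 3.12% of all genes. That gene was Lmo1, at 0.981 in Nanos2-/- Stra8+/- gonads and 1.53 in gonads labelled Nanos2-/- Stra8-/-, against 0.366 in control gonads. None of 7 cofactors of sine oculis proteins such as Eya and Dach, of 11 TALE partners such as Pbx and Meis, or of 5 Groucho corepressors reached 2-fold in any comparison. Over all genes the shares ran from 1.01% to 4.24% by comparison and direction, so lists this short would hold few or none. Their medians with Nanos2 loss were 0.18, 0.05 and 0.37, against 0.04 for all genes.

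Homeobox genes outside the member families, of which 49 of 55 listed were measured, lay on both sides of the control. With Nanos2 loss 4 (8.16%) were at least 2-fold higher and 5 (10.2%) lower, against 2.35% and 3.12% of all genes. In combined loss 9 (18.4%) were higher and 5 (10.2%) lower, against 4.24% and 2.81%. Onecut2, a gene of liver and neurons, was higher by the mean of 3 probes, at 1.12 and 1.17 in the Nanos2-null groups against 0.472 in control gonads. Its relative Onecut1 stood at 1.06 and 1.05 against 0.427. En1, of the midbrain-hindbrain region, was lower, at 0.393 and 0.408 in the Nanos2-null groups against 1.35 in control gonads, and Dbx1, of the spinal cord, stood at 0.322 and 0.390 against 0.973. Their medians were 0.06 with Nanos2 loss and 0.44 in combined loss, close to those of the members.

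Summed markers of other tissues where members act were above control gonads in both Nanos2-null groups, except striated muscle in Nanos2-/- Stra8+/- gonads. These sums also carry the shift of all genes, whose median log2 difference was 0.04 with Nanos2 loss and 0.18 in combined loss. In combined loss the median was 0.01 over neuronal, 0.03 over endothelial and 0.13 over coelomic markers. It was 0.15 over macrophage, 0.18 over erythroid and 0.47 over striated muscle markers. Neuronal and neural crest markers summed to 6.84 and 6.55 in the Nanos2-null groups, Nanos2-/- Stra8+/- first, against 5.97 in control gonads over 7 genes, and none of them reached 2-fold. Striated muscle markers summed to 6.07 and 8.71 in the Nanos2-null groups against 7.29 in control gonads. Of these 7 genes 5 had a positive log2 difference with Nanos2 loss. The lowest was Myf5 at -3.15, by 1 probe, from 0.255 in Nanos2-/- Stra8+/- gonads against 2.26 in control gonads. Coelomic epithelium markers summed to 6.18 and 6.88 against 5.19, led by Msln, a mesothelial surface protein gene, at 0.982 and 1.67 in the Nanos2-null groups against 0.422 in control gonads. Endothelial markers summed to 5.25 and 5.27 in the Nanos2-null groups against 5.01 in control gonads, erythroid markers to 5.41 and 5.39 against 4.62, and macrophage markers to 4.69 and 4.74 against 4.05. No endothelial, erythroid or macrophage marker reached 2-fold, where 2.35% of all genes were higher and 3.12% lower with Nanos2 loss. The part of all these tissues in the member values was not tested.

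**Figure D4:**
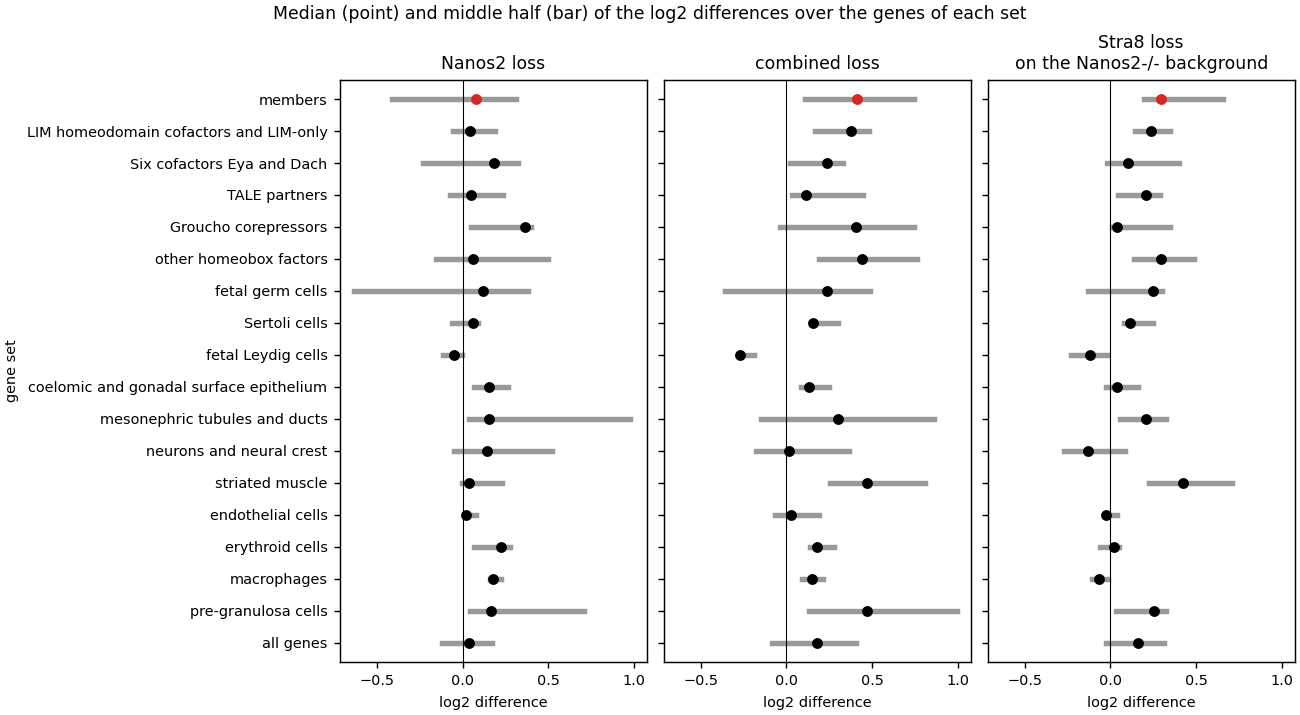
Median (point) and interquartile range (bar) of the log2 differences over the genes of each set in the 3 comparisons, with the members in red at the top and all genes at the bottom. The member bar with Nanos2 loss runs from -0.41 to 0.31, against -0.12 to 0.17 for all genes, and the member median in combined loss is 0.41.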

How the data were processed

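Gene expression was measured in male mouse gonads on 1-colour Agilent arrays scanned and extracted by software that the submitters' processing notes give as Agilent Feature Extraction 9.5. The authors deposited linear ratios, 1 column per genotype. The authors' normalization and their way of combining arrays are not given in the sources used here; division per probe was inferred from the values. Of 41174 array probes, 32664 had 1 gene symbol in the platform annotation, 45 had several and 8465 were unlisted. Gene identifiers of 32524 probes were found in a RefSeq table of GRCm38.p6, which changed 0 symbols.

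Log2 values were averaged over the probes of a gene and subtracted between columns, with no level filter, in Python 3.11.15 with pandas 2.3.3. The probe with the highest mean was not used, because on relative values it favours a single high column. The counting was tested on simulated data. A single column per genotype allowed no test. Of the members, 41 reached the column median of all probes in at least 1 column. Alternatives changed the probe rule, the scaling, the floor, a pseudocount of 0.1, the level filter, the low class and the fold size. Named were Nanos2 and Stra8, members past 2-fold, members with a known urogenital or germ cell role, and up to 4 genes of each list; other members and list genes are named for completeness, after their values were seen. The members and lists were chosen with earlier results of these data known.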

Additional observations from a re-analysis of the deposited data

How the results depend on the processing

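No paired analysis was possible because each genotype has 1 column, and for the same reason no replicate could be left out. Of 26 member differences past 2-fold, 19 stayed past 2-fold in all 6 settings that give a value per gene without raising low values. None turned its direction, but that was largely fixed in advance. The level filter and leaving out the low class changed none of the 26. A pseudocount cannot turn the sign of a probe, and the rule of the highest mean changes only genes with several probes. When every value under its column median was set to that median, the counts of members were 0 higher and 0 lower for Nanos2 loss (0.113% and 1.38% of all genes), 1 and 0 for combined loss (0.410% and 1.31%) and 1 and 0 for Stra8 loss on the Nanos2-/- background (0.317% and 0.0819%). The member medians were then 0.16 for combined loss and 0.10 for Stra8 loss, against 0.09 and 0.05 for all genes, and 2 of the 26 stayed past 2-fold, both of them differences of Nkx1-1. This setting removes by construction differences whose lower side is under the median, and fixes the sign where both sides are, so signs under it carry no information. At 1.5-fold, 13 members were higher and 9 lower with Nanos2 loss (5.78% and 6.83% of all genes), 22 and 5 in combined loss (12.4% and 6.28%), and 15 and 1 for Stra8 loss (6.8% and 2.9%). For Stra8 loss 5 of the 51 members left were higher without the low class (2.44% of all genes), 5 of 57 by the probe with the highest mean (2.58%) and 2 with a pseudocount of 0.1 (1.37%). Quantile normalization gave a member median of 0.25 in combined loss and moved the median of all genes there to 0.03. The probe with the highest mean took Msx1 to 0.36 and Nkx2-4 to 0.14 with Nanos2 loss, and to 0.56 and 0.29 in combined loss. Nkx6-2 with Nanos2 loss (-0.96) and Lhx5 with Stra8 loss (0.96) dropped under 2-fold with the pseudocount, and Irx2 in combined loss (0.98) with quantile normalization. Centring took Barx2 in combined loss to -1.06. The causes were not tested. Background limits every low ratio, since its level per probe is unknown.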

Other observations

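The goosecoid gene Gsc, a homeobox gene of the embryonic organizer outside the member families, stood at 0.261 in Nanos2-/- Stra8+/- gonads and 1.0 in gonads labelled Nanos2-/- Stra8-/-, against 2.28 in control gonads. Myf5, a muscle determination gene of the marker lists, had nearly the same 3 ratios, at 0.255 and 1.0 in the Nanos2-null groups against 2.26 in control gonads. Each rested on 1 probe, and the control was the highest column for both. The paired box and homeobox gene Pax3 had 2 probes that parted, with log2 differences of -1.20 and 0.14 with Nanos2 loss. Prox1, a homeobox gene of lymphatic vessels, had 3 probes whose log2 differences in combined loss ran from 0.27 to 2.84. These genes were chosen after their values were seen.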
